A study of Homo sapiens with 3 samples.

Results

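The genes described here encode the proteins of the cytosolic ribosome. They were taken by symbol from the deposited expression table: the RPL and RPS symbols that end in a number or in A, X, L, AL or L1, together with RPLP0, RPLP1, RPLP2 and RPSA. This gave 83 of 16662 listed genes, of which 46 are core proteins of the large subunit, 31 are core proteins of the small subunit, and 6 are paralogues whose symbols end in L or L1. The cells were H1975, an established human lung adenocarcinoma line with mutant EGFR, although the labels also name their source as tumour tissue. One library came from cells given the small interfering RNA (siRNA) siHHLA3-1, another from cells given siHHLA3-3, and the last from cells given the control siRNA siNC. All of the cultures were transfected near 70% confluency, held without serum for 6 h and then kept a further 24 h in 10% serum. Each group therefore holds 1 library, so effects of siRNA, culture and any batch cannot be told apart.

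A ribosome is built from ribosomal RNA and one copy of most of these proteins, so cells make the proteins in matched amounts. Their messages are among the most abundant of a growing cell, and most begin with a C followed by a run of pyrimidines, the 5′ terminal oligopyrimidine (TOP) motif, through which mTOR and LARP1 control their translation. Surplus ribosomal proteins are degraded, and free RPL5 and RPL11, bound to 5S RNA, inhibit MDM2, the ubiquitin ligase of p53.

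The targeted gene, HHLA3, had 1.55 CPM (55 reads) with siHHLA3-1, 0.735 CPM (20 reads) with siHHLA3-3 and 5.99 CPM (192 reads) with siNC. CPM here are counts scaled to a common library total and corrected with TMM factors. Library totals were 35069930, 26950852 and 32813003 reads in the same order, and all 83 members passed the filter of a mean of at least 1 CPM, as did 13879 genes in all. Of the markers of lung adenocarcinoma epithelium, 8 of 8 were listed, and their summed level was 5012 CPM with siHHLA3-1, 4168 CPM with siHHLA3-3 and 5325 CPM with siNC. Fibroblast markers had 1 of 4 listed (COL1A1, 24.5 CPM with siHHLA3-1, 10.9 CPM with siHHLA3-3 and 11.3 CPM with siNC), and endothelial markers 1 of 3 (CDH5, 19.2, 3.01 and 7.95 CPM in that order). PTPRC, CD3E, CD68, COL1A2, PDGFRB, DCN, PECAM1 and VWF were not listed. The part of these differences in the values below was not tested. Levels are relative to the other RNA of each library, and in bulk RNA fewer cells of a type and less RNA per cell cannot be told apart. All intervals are exact 95% intervals that cover counting error only.

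The starts of these genes hold a feature that many members have and that the symbol rule did not use. In the RefSeq promoter table (GRCh38.p14, which is not the build named for the reads), 67 members had an entry used here and 16 had no entry used. Some of the 16 were left out by their location, so the number does not show that the table lacks them. The count of all genes below left out no location, so its share and that of the members were not made in the same way. A TOP start was taken as a C at the annotated start base followed by at least 4 further bases that are C or T, on the gene's own strand, at any listed start. It was found in 47 of the 67 members (70.1%), against 1404 of 27305 genes in the table (5.14%). The run was 5 to 19 bases long in these members, with a median of 8. Among core proteins 46 of 62 had such a start, and among the paralogues 1 of 5, which was RPL22L1. Each window below runs 5′ to 3′ on the gene's strand, with 10 bases before the start and 20 from it on, and capitals mark the pyrimidine run. The first 8 are members at the ends of the comparisons below.
RPS3A (chr4:151099618-151099647, plus strand): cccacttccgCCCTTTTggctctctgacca
RPL14 (chr3:40457329-40457358, plus strand): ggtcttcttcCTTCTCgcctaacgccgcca
RPS6 (chr9:19380217-19380246, minus strand): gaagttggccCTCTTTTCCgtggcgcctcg
RPL11 (chr1:23691796-23691825, plus strand): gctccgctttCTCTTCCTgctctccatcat
RPL38 (chr17:74203668-74203697, plus strand): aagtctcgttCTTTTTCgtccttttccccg
RPL31 (chr2:101002279-101002308, plus strand): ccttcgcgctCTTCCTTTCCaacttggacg
RPS29 (chr14:49598691-49598720, minus strand): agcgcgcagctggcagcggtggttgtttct
RPS9 (chr19:54200848-54200877, plus strand): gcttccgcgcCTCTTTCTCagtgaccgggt
The next windows set core proteins beside their paralogues.
RPL22 (chr1:6199576-6199605, minus strand): cgctcacctcCCTTTCTaactccgctgccg
RPL22L1 (chr3:170870176-170870205, minus strand): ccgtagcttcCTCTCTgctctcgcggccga
RPL26 (chr17:8383174-8383203, minus strand): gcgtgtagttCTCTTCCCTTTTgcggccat
RPL26L1 (chr5:172958719-172958748, plus strand): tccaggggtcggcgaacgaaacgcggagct
RPL36A (chrX:101391001-101391030, plus strand): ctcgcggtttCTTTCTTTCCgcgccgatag
RPL36AL (chr14:49620607-49620636, minus strand): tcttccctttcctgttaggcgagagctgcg
RPS27 (chr1:153990752-153990781, plus strand): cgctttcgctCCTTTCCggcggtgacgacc
RPS27L (chr15:63157458-63157487, minus strand): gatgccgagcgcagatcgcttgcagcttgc
RPL7L1 (chr6:42879606-42879635, plus strand): gtgcggcgccgtagctaggagcggacgcca
RPL39 (chrX:119791611-119791640, minus strand): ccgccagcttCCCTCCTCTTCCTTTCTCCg
In these windows the run is present in RPL22, RPL26, RPL36A, RPS27 and RPL39 and, of the paralogues, in RPL22L1. RPL11 and RPL26L1 have 2 listed starts each, and 1 of each is shown. A start without the run says only that these letters are not at that annotated base.

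Per length, the core proteins covered a wide range of levels. The median over the 77 core genes was 131 FPKM with siHHLA3-1, 146 FPKM with siHHLA3-3 and 151 FPKM with siNC, and 25 of them were among the 100 most abundant genes of the siNC library by FPKM. RPS2, which lines the mRNA entry channel, was the most abundant, with 1012 FPKM with siHHLA3-1, 1130 FPKM with siHHLA3-3 and 1177 FPKM with siNC. RPL41, the shortest ribosomal protein, had 632, 680 and 671 FPKM in that order. RPS12, RPS27 and RPL8 followed in the siNC library at 643, 483 and 479 FPKM. At the other end, RPS10 had 0.818 FPKM with siHHLA3-1, 0.919 FPKM with siHHLA3-3 and 0.980 FPKM with siNC, or 66, 57 and 74 reads. RPL36A, RPL17 and RPL22 were at 2.04, 3.05 and 6.43 FPKM with siNC, and in all 6 core genes stayed under 10 FPKM in every library while 66 reached at least 50 FPKM in every library. The ratio of CPM to FPKM gives the gene length behind the authors' FPKM, which was 0.639 to 9.84 kb with a median of 3.19 kb, while the coding lengths in GENCODE 29 are 75 to 1281 nt. The level of a member per length therefore depends on the gene model that was used. Reads of 136 listed pseudogenes carry the name of 60 members, and in the siNC library they took a median of 1.81% of the reads of a member and its pseudogenes together. They took more than 10% for 7 members, namely RPS10 (79.3%), RPL26 (41.5%), RPL22 (30.8%), RPS28 (24.2%), RPS7 (13.3%), RPL23A (11.8%) and RPL7 (11.3%), so the levels of these genes are uncertain.

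**Figure D1:**
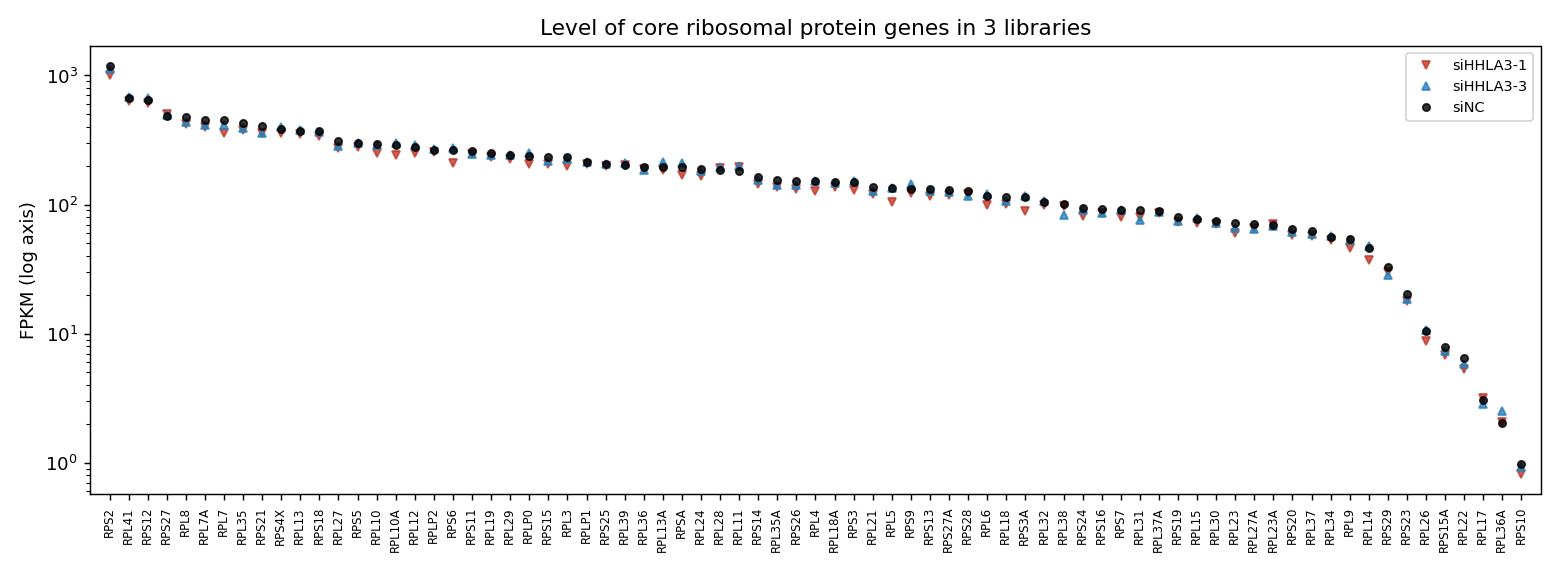
FPKM on a log axis of 75 of the 77 core ribosomal protein genes in each library, ordered by the siNC library; triangles pointing down are siHHLA3-1, triangles pointing up siHHLA3-3 and circles siNC. RPS2 lies at the left at 1012 to 1177 FPKM and RPS10 at the right at 0.818 to 0.980 FPKM, and the libraries differ little beside the differences between genes.

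Together the members took 3.90% of the listed reads with siHHLA3-1 (3.896 to 3.909), 4.26% with siHHLA3-3 (4.249 to 4.264) and 4.34% with siNC (4.331 to 4.345). The siHHLA3-1 library was the lowest and the intervals do not overlap. Large subunit core proteins took 2.38%, 2.57% and 2.63% in the same order, and small subunit core proteins 1.48%, 1.63% and 1.66%. The 6 paralogues took 0.0497% with siHHLA3-1, 0.0530% with siHHLA3-3 and 0.0528% with siNC. Summed CPM of the members with siHHLA3-1 were 0.868 of those with siNC (0.866 to 0.870), those with siHHLA3-3 were 0.949 of those with siNC (0.947 to 0.952), and those with siHHLA3-3 were 1.09 times those with siHHLA3-1 (1.091 to 1.096). With no second library in any group, the spread between cultures is unknown and no test of these differences between conditions could be run.

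**Figure D2:**
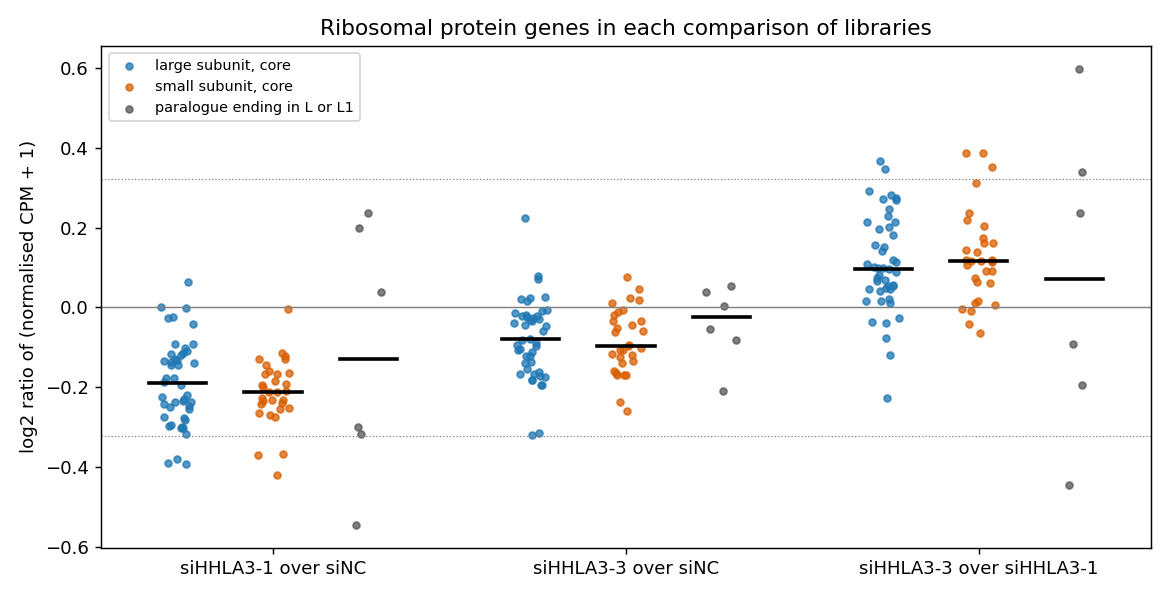
Log2 ratio of (CPM + 1) of each member in the 3 comparisons, coloured by class; horizontal bars are medians and dotted lines mark 20% lower and 25% higher. Most core points lie below 0 with siHHLA3-1 over siNC (75 of 77) and above 0 with siHHLA3-3 over siHHLA3-1 (67 of 77), and the 6 paralogues spread more widely.

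With siHHLA3-1, most ribosomal protein genes were slightly lower than with siNC. The ratios are log2 of (CPM + 1) over (CPM + 1), and their median over the members was -0.21, with the middle 50% of members between -0.26 and -0.13. Over all 13879 genes the median was -0.01, and over the 2285 other genes of at least 100 CPM it was -0.07. Below 0 were 78 of the 83 members, against 51.8% of all genes and 60.5% of genes of at least 100 CPM. The counting interval of the ratio lay below 1 for 71 members and above 1 for 3, where 32.6% and 28.7% of all genes did so. Genes of at least 100 CPM did so in 53.4% and 32.8%. The differences of single genes were small. A gene was counted when its ratio was at least 20% lower or at least 25% higher, which are equal steps of 0.32 on the log2 scale. So counted were 7 members as lower, a smaller share than the 13.5% of all genes, and 0 as higher (15% of all genes). None was 2-fold lower (0.382% of all genes) or 2-fold higher (0.973%).

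RPS3A, a small subunit protein near the mRNA exit, had 201 CPM with siHHLA3-1, 262 CPM with siHHLA3-3 and 269 CPM with siNC, and was 1.34-fold lower with siHHLA3-1 than with siNC (1.30 to 1.38). The siHHLA3-1 library was low, and the other libraries lay close together. The same held for RPL5, a carrier of 5S RNA, with 383 CPM with siHHLA3-1, 488 CPM with siHHLA3-3 and 504 CPM with siNC, which was 1.31-fold lower with siHHLA3-1 than with siNC (1.28 to 1.34). RPL7, a large subunit protein, had 948, 1112 and 1243 CPM in that order and was 1.31-fold lower with siHHLA3-1 than with siNC (1.29 to 1.33). Here the siHHLA3-3 library lay between the others, and 11.3% of the reads of RPL7 and its pseudogenes were in the pseudogenes. RPL14, also of the large subunit, had 315 CPM with siHHLA3-1, 406 CPM with siHHLA3-3 and 410 CPM with siNC, 1.30-fold lower with siHHLA3-1 than with siNC (1.27 to 1.34). RPS6, the substrate of the S6 kinases, had 562, 736 and 726 CPM in that order and was 1.29-fold lower with siHHLA3-1 than with siNC (1.27 to 1.32). The paralogue RPL39L was also past the threshold. Just short of the threshold lay RPL7L1 and RPL23, both at -0.32.

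At the other end, 2 core genes and 3 paralogues were above 0 with siHHLA3-1, against 48.2% of all genes. When library totals alone were used, 10 members were above 0, against 54.7% of all genes. RPL11, which joins RPL5 on the 5S RNA, had 514 CPM with siHHLA3-1, 519 CPM with siHHLA3-3 and 492 CPM with siNC, and was 1.04-fold higher with siHHLA3-1 than with siNC (1.02 to 1.07). RPL28 had 1212, 1224 and 1211 CPM in that order, and its counting interval (0.987 to 1.01) included 1. RPL5 and RPL11, which act as a pair, differed in direction here. RPL5 took 42.7% of the reads of the pair with siHHLA3-1 (42.2 to 43.3), 48.4% with siHHLA3-3 (47.8 to 49.0) and 50.6% with siNC (50.05 to 51.15).

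**Figure D3:**
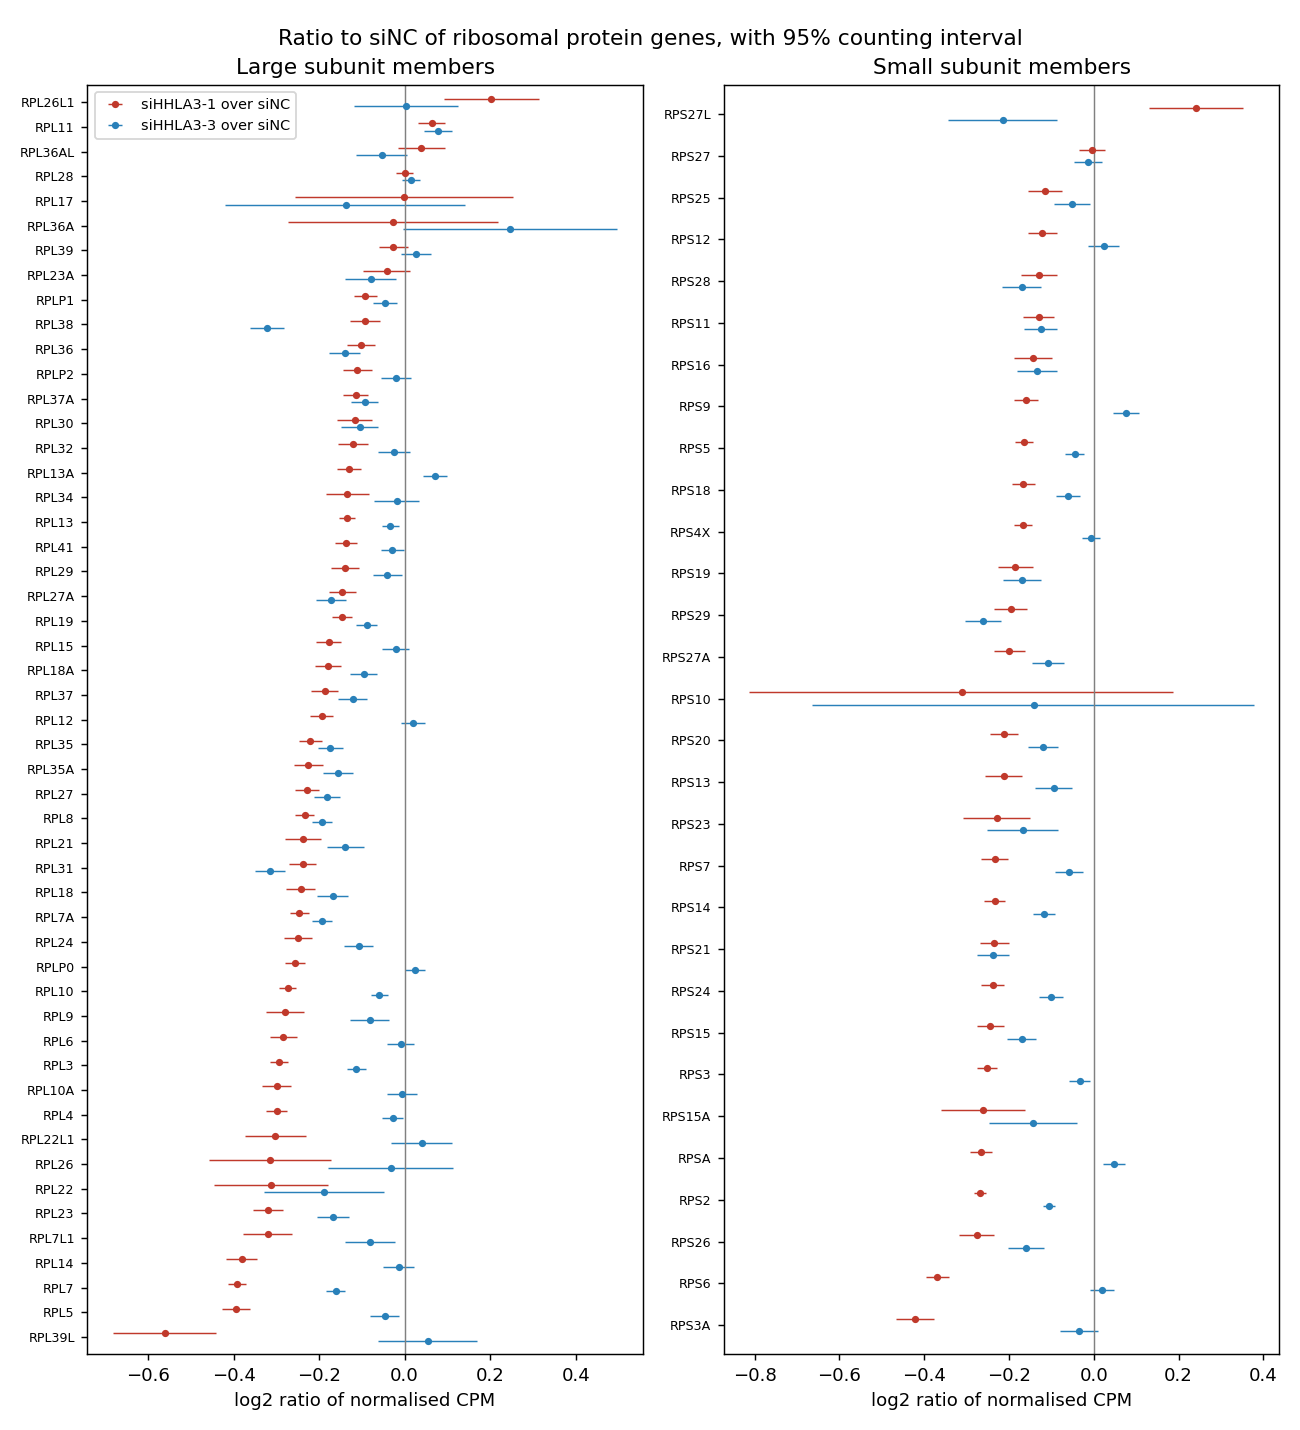
Log2 ratio of CPM to siNC of 81 of the 83 members, without the added 1, for siHHLA3-1 (red) and siHHLA3-3 (blue), with exact 95% counting intervals; large subunit genes are on the left and small subunit genes on the right, ordered by the siHHLA3-1 ratio. RPS3A and RPL39L lie at the bottom of their panels, RPS27L and RPL26L1 at the top, and RPS10 has the widest interval.

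With siHHLA3-3, the ribosomal protein genes lay closer to siNC. The median over the members was -0.08, against -0.01 over all genes and -0.03 over the other genes of at least 100 CPM. Below 0 were 68 of 83 members, against 51.5% of all genes, but this count rests on the scaling: it was 48 with library totals alone (44.8% of all genes) and 43 with the deposited TPM (42.5% of all genes). The counting interval lay below 1 for 53 members and above 1 for 5, against 30.6% and 27.6% of all genes, and 45.5% and 36.9% of genes of at least 100 CPM. No member was at least 20% lower (15.1% of all genes) or 25% higher (12.7% of all genes). This comparison and that of siHHLA3-1 share the siNC library, so they are not independent.

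The 5 members lowest with siHHLA3-3 over siNC were RPL38, RPL31, RPS29, RPS21 and RPS27L. RPL38, a protein of the large subunit that in mouse is needed for translation of Hox messages, had 368 CPM with siHHLA3-1, 314 CPM with siHHLA3-3 and 393 CPM with siNC. Only the siHHLA3-3 library was far from siNC, and its ratio to siNC of -0.32 fell just short of the threshold. RPL31, at the exit of the peptide tunnel, had 417, 396 and 493 CPM in that order and a ratio of -0.31 with siHHLA3-3. RPS29 (289, 277 and 332 CPM) and RPS21 (367, 366 and 431 CPM) were lower in both siHHLA3 libraries, with ratios to siNC of -0.20 and -0.23 in the siHHLA3-1 library, and -0.26 and -0.24 in the siHHLA3-3 library. The paralogue RPS27L is described below with its partner. The highest ratio was that of RPL36A, at 8.14 CPM with siHHLA3-1, 9.84 CPM with siHHLA3-3 and 8.29 CPM with siNC, where the interval of the siHHLA3-3 to siNC ratio (0.998 to 1.41) included 1. RPL11, RPS9 (524, 617 and 585 CPM) and RPL13A, known for a role outside the ribosome in silencing inflammatory messages (591, 680 and 647 CPM), were 1.05 to 1.06-fold higher with siHHLA3-3 than with siNC. For RPS9 and RPL13A the siHHLA3-1 library was the lowest and the siHHLA3-3 library the highest.

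Set against each other, the siHHLA3 libraries also differed, with most ribosomal protein genes slightly higher with siHHLA3-3 than with siHHLA3-1. The median ratio of siHHLA3-3 over siHHLA3-1 was 0.11, against 0.00 over all genes and 0.03 over the other genes of at least 100 CPM. Above 0 were 70 of 83 members, against 50.4% of all genes, and the counting interval lay above 1 for 59 members and below 1 for 7, against 31.6% and 31.1% of all genes, and 47.6% and 37.6% of genes of at least 100 CPM. At least 25% higher were 7 members (14.9% of all genes), and 1 was at least 20% lower (18.3%). The higher ones included RPL39L, RPS6, RPS3A, RPL14, RPL5 and RPL22L1, and the one lower was RPS27L. RPS6 was 1.31-fold higher with siHHLA3-3 than with siHHLA3-1 (1.28 to 1.34). RPSA, which is also known as a laminin receptor, lay just short of the threshold with 650 CPM with siHHLA3-1, 808 CPM with siHHLA3-3 and 782 CPM with siNC. The siHHLA3-1 library had the lowest level of the 3 for 68 members, against 35.5% of all genes and 44.4% of genes of at least 100 CPM. These counts use the same siHHLA3-1 library as the comparison with siNC.

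Large and small subunit core genes had close medians. They were -0.19 and -0.21 for siHHLA3-1 over siNC, -0.08 and -0.10 for siHHLA3-3 over siNC, and 0.10 and 0.12 for siHHLA3-3 over siHHLA3-1. Below 0 with siHHLA3-1 over siNC were 44 of 46 large subunit and 31 of 31 small subunit core genes. The SD of the ratios over the 77 core genes was 0.098 for siHHLA3-1 over siNC and 0.092 for siHHLA3-3 over siNC, while over the 2285 other genes of at least 100 CPM it was 0.326 and 0.340.

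Groups by place in the ribosome gave similar values. The stalk, which recruits the elongation factors, had a median of -0.15 for siHHLA3-1 over siNC and 0.00 for siHHLA3-3 over siNC. In it RPLP0, which anchors the stalk, had 816 CPM with siHHLA3-1, 991 CPM with siHHLA3-3 and 974 CPM with siNC. Its partners RPLP1 (663, 685 and 706 CPM) and RPLP2 (412, 438 and 445 CPM) were also lowest with siHHLA3-1. The ratios of RPLP0, RPLP1 and RPLP2 to siNC were -0.26, -0.09 and -0.11 with siHHLA3-1. The 8 proteins around the exit tunnel had medians of -0.18 for the siHHLA3-1 and -0.08 for the siHHLA3-3 library over siNC, and the 5 proteins of the mRNA channel, which include RPS2, RPS3 and RPS26, had -0.25 and -0.12. RPS2 had 2387 CPM with siHHLA3-1, 2671 CPM with siHHLA3-3 and 2876 CPM with siNC, a step down from siNC in both siHHLA3 libraries and a larger one with siHHLA3-1. For 10 genes mutated in Diamond-Blackfan anaemia, a failure of red cell production, the medians were -0.23 and -0.08, which were close to those of all members.

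The ratios of the core genes went with coding length, which the symbol rule did not use. Across the 77 core genes, Pearson's r between coding length and the ratio of siHHLA3-1 to siNC was -0.50 (Spearman's rho -0.52), that for siHHLA3-3 over siNC was 0.24 (rho 0.28), and that for siHHLA3-3 over siHHLA3-1 was 0.59 (rho 0.60). Across the 11828 genes above the filter with a known coding length, r was 0.05, 0.02 and -0.02 in the same order. The value for siHHLA3-3 over siNC differed by subunit, with r of 0.59 over the 31 small subunit core genes and 0.09 over the 46 large subunit ones. The points of each correlation are genes of the same pair of libraries, are not independent replicates, and share depth and scaling, and the comparisons that involve the siHHLA3-1 library share it. The 22 core genes of more than 600 nt had a median of -0.27 for siHHLA3-1 over siNC, and 6 of them were at least 20% lower, where 13.5% of all genes were. The 30 genes of 401 to 600 nt had -0.19 and the 25 of up to 400 nt -0.13, with 0 of either at least 20% lower. For siHHLA3-3 over siNC the medians ran the other way, with -0.03 for the longest, -0.10 for the middle and -0.12 for the shortest genes. Other genes of at least 100 CPM and the same coding lengths had medians of -0.07, -0.11 and -0.04 for siHHLA3-1 over siNC, from the longest to the shortest. For siHHLA3-3 over siNC theirs were -0.03, -0.05 and -0.09, in the same order of length classes as the ribosomal protein genes. For siHHLA3-3 over siHHLA3-1 the core genes had 0.22, 0.09 and 0.06, and these other genes 0.03, 0.03 and -0.04. RPL3 and RPL4, the longest at 1209 and 1281 nt, had ratios to siNC of -0.29 and -0.30 in the siHHLA3-1 library and -0.11 and -0.03 in the siHHLA3-3 library. RPS27, at 252 nt, had 507 CPM with siHHLA3-1, 503 CPM with siHHLA3-3 and 508 CPM with siNC, so the levels with both siHHLA3 siRNAs lay within the counting interval of siNC. RPL39, at 153 nt, had 429, 445 and 437 CPM in that order. GC content of the whole transcript, untranslated parts included, went with the ratios less (r 0.16 for siHHLA3-1 over siNC, and 0.16 across the 11828 genes). Core genes with a TOP start (46) had medians of -0.20 and -0.05 for siHHLA3-1 and siHHLA3-3 over siNC, and the 16 without one had -0.23 and -0.09.

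**Figure D4:**
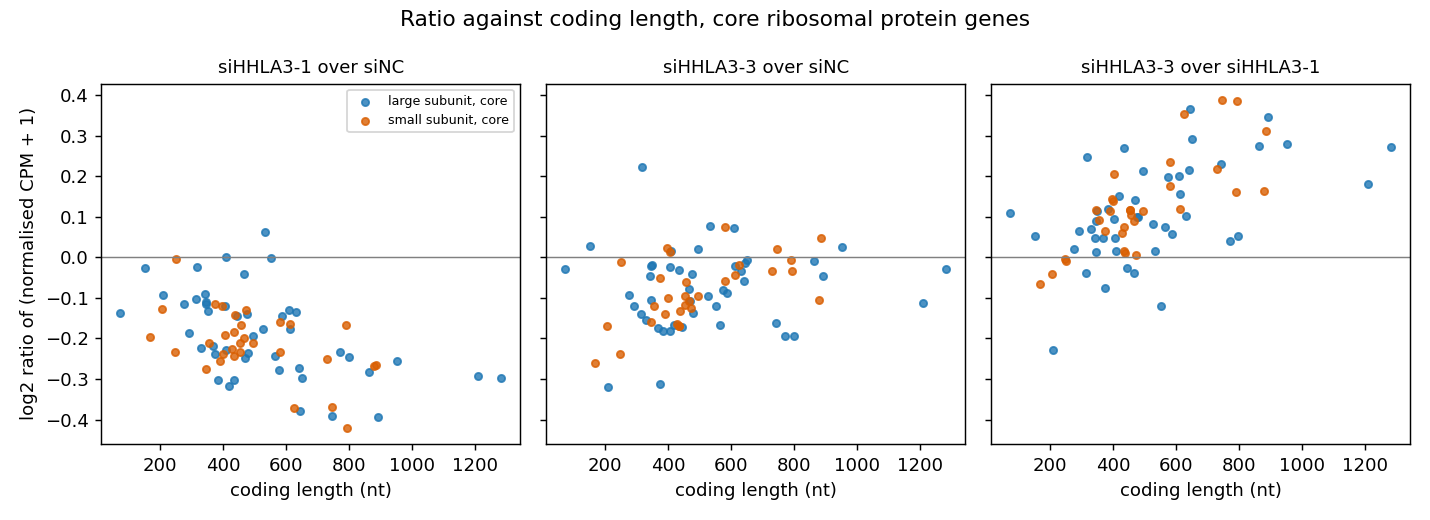
Log2 ratio of (CPM + 1) against coding length in nucleotides for the 77 core genes, 1 panel per comparison. Points of more than 600 nt lie lowest with siHHLA3-1 over siNC (median -0.27) and highest with siHHLA3-3 over siHHLA3-1 (median 0.22).

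The 6 paralogues did not move as a group. Their ratios to siNC with siHHLA3-1 ran from -0.54 for RPL39L up to 0.24 for RPS27L, while core genes lay between -0.42 and 0.06. RPL39L, a paralogue of the exit tunnel protein RPL39 known from mouse male germ cells, had 27.4 CPM with siHHLA3-1, 42.0 CPM with siHHLA3-3 and 40.4 CPM with siNC. It was 1.48-fold lower with siHHLA3-1 than with siNC (1.357 to 1.605) and 1.53-fold higher with siHHLA3-3 than with siHHLA3-1 (1.405 to 1.671). Only the siHHLA3-1 library was low, and RPL39L took 6.00% of the reads of RPL39L and RPL39 there, 8.62% with siHHLA3-3 and 8.47% with siNC. RPS27L, a p53 target, went the other way between the siHHLA3 libraries, with 43.1 CPM with siHHLA3-1, 31.4 CPM with siHHLA3-3 and 36.4 CPM with siNC. It was 1.18-fold higher with siHHLA3-1 than with siNC (1.10 to 1.28), 1.16-fold lower with siHHLA3-3 than with siNC (1.06 to 1.27) and 1.37-fold lower with siHHLA3-3 than with siHHLA3-1 (1.26 to 1.49). Its core partner RPS27 differed by less than counting error between all 3 libraries, and RPS27L took 7.83%, 5.86% and 6.69% of their joint reads in siHHLA3-1, siHHLA3-3 and siNC.

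RPL26L1 was high with siHHLA3-1 alone, at 42.8 CPM, against 37.3 CPM with siHHLA3-3 and 37.2 CPM with siNC. It took 66.6% of the reads of RPL26L1 and RPL26 with siHHLA3-1 (64.6 to 68.5), 58.8% with siHHLA3-3 (56.4 to 61.1) and 58.2% with siNC (56.0 to 60.3), and the pseudogenes of RPL26 make this share uncertain. RPL22L1 and RPL22 both had ratios of -0.30 with siHHLA3-1, and RPL22L1 took 77.6% of their reads with siHHLA3-1, 80.1% with siHHLA3-3 and 77.5% with siNC. RPL7L1, a nucleolar protein of ribosome assembly, had 130, 153 and 162 CPM in that order, and its share beside RPL7 was 12.05%, 12.11% and 11.53%. RPL36AL took 95.18%, 93.86% and 94.96% of the reads of RPL36AL and RPL36A. Per length, RPL22L1, RPL26L1 and RPL36AL exceeded their core partners in the siNC library (50.4 against 6.43 FPKM, 31.2 against 10.55 FPKM and 226 against 2.04 FPKM), while RPL39L, RPL7L1 and RPS27L were below theirs (38.3 against 201 FPKM, 20.3 against 450 FPKM and 4.03 against 483 FPKM). Paralogues and their partners are alike in sequence, and the handling of reads that match both was not given in the sources used here.

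**Figure D5:**
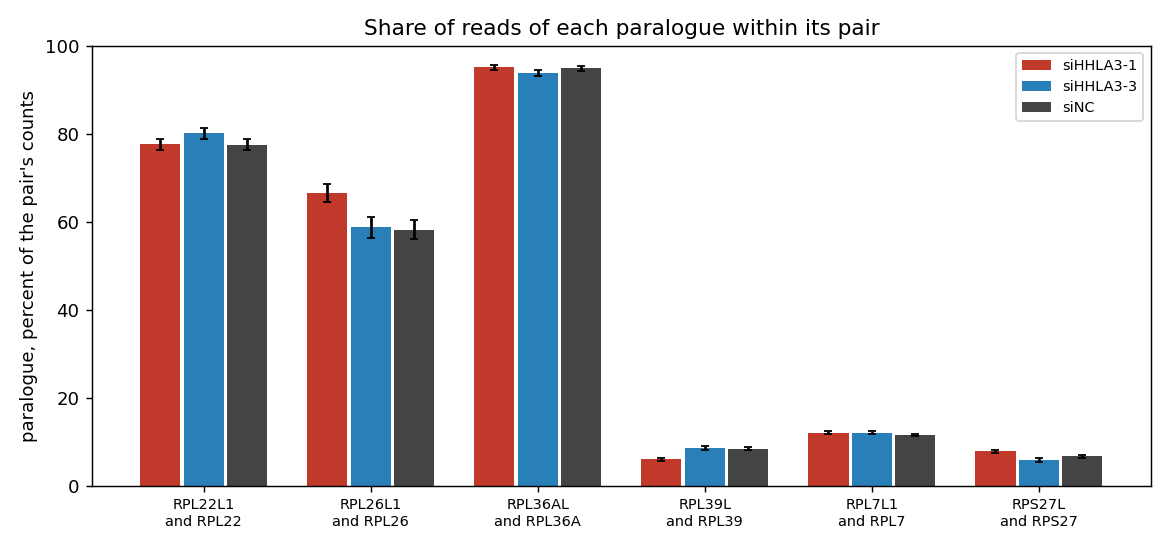
Share of the reads of each pair that the paralogue took, in percent, in the siHHLA3-1, siHHLA3-3 and siNC libraries, with exact 95% binomial intervals. The RPL26L1 bar is highest with siHHLA3-1 at 66.6%, and the RPL39L bar is lowest there at 6.00%.

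FAU, which encodes a ribosomal protein fused to a ubiquitin-like protein and has a symbol outside the rule, stayed within the range of the members. It had 70.9 CPM with siHHLA3-1, 72.6 CPM with siHHLA3-3 and 77.5 CPM with siNC, and was lowest with siHHLA3-1. A further list held translation factors and other proteins whose messages are held to carry the TOP motif, which was not checked here. Of its 17 listed genes, 15 were below 0 with siHHLA3-1 over siNC (median -0.23), where 51.8% of all genes were. At least 20% lower were 5 of them, against 13.5% of all genes. Their median with siHHLA3-3 over siNC was 0.01. EIF3L, a subunit of initiation factor eIF3, had 98.9 CPM with siHHLA3-1, 138 CPM with siHHLA3-3 and 143 CPM with siNC. EIF4B (262, 341 and 346 CPM) and EEF1B2 (157, 204 and 206 CPM) likewise were low with siHHLA3-1 alone, whereas HNRNPA1 had 1019, 821 and 1300 CPM and was lowest with siHHLA3-3.

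Late assembly factors of the ribosome had a median of -0.29 for siHHLA3-1 over siNC, and 7 of 16 were at least 20% lower, where 13.5% of all genes were. For siHHLA3-3 over siNC the median was 0.01 and 0 of 16 were at least 20% lower (15.1% of all genes). RRS1, which in yeast brings the 5S RNA with RPL5 and RPL11 into the large subunit, had 70.5 CPM with siHHLA3-1, 137 CPM with siHHLA3-3 and 155 CPM with siNC. This difference was larger than that of any ribosomal protein gene, with a ratio of -1.13 for siHHLA3-1 over siNC. PNO1 and BCCIP had ratios to siNC of -0.64 and -0.48 in the siHHLA3-1 library and -0.10 and -0.15 in the siHHLA3-3 library, and EFL1, which releases eIF6 from the large subunit, had 0.15 and 0.49. Host genes of small nucleolar RNAs, whose spliced RNAs can carry the TOP motif, did not follow the ribosomal proteins in their ratios to siNC. Their median over 10 listed genes was -0.01 for siHHLA3-1 over siNC and 0.46 for siHHLA3-3 over siNC. In the latter 6 were at least 25% higher (12.7% of all genes). For siHHLA3-3 over siHHLA3-1 their median was 0.48 and 10 of 10 were above 0 (50.4% of all genes), the direction of most ribosomal protein genes. SNHG1 had 62.5 CPM with siHHLA3-1, 98.9 CPM with siHHLA3-3 and 63.3 CPM with siNC, so the siHHLA3-3 library alone was high. SNHG8, SNHG12 and EPB41L4A-AS1 had ratios to siNC of 0.13, 0.27 and 0.32 in the siHHLA3-1 library and 0.65, 0.53 and 0.91 in the siHHLA3-3 library, and the last is antisense to a gene whose reads cannot be told apart without strand. Of 13 regulators of TOP translation, EIF4EBP2, a repressor of cap-dependent initiation, had 222 CPM with siHHLA3-1, 116 CPM with siHHLA3-3 and 214 CPM with siNC. TSC2, EIF4E and RPTOR had ratios to siNC of 0.36, -0.30 and -0.22 in the siHHLA3-1 library and 0.26, -0.30 and -0.32 in the siHHLA3-3 library. The epithelial markers had a median ratio to siNC of 0.02 in the siHHLA3-1 library and -0.26 in the siHHLA3-3 library, where NKX2-1 was at 0.13 and -0.89. Their part in the ratios of the ribosomal protein genes was not tested.

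Taking both siHHLA3 libraries as 2 samples against the single siNC library, with 1 residual degree of freedom, edgeR's quasi-likelihood test called 0 of 83 members at a Benjamini-Hochberg adjusted p under 0.05 and 1 of 13879 genes (0.00721%). DESeq2 called 0 members and 5 genes (0.036%). At an unadjusted p under 0.05 edgeR had 0 members and 349 genes. Both fits take their spread from the difference between the siHHLA3-1 and siHHLA3-3 libraries, which are of different siRNAs and differed for most members. The absence of called members therefore does not show that the members were unchanged. Differences of the size seen here lie outside counting error for most members, but these libraries cannot show whether they exceed the spread between cultures.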

How the data were processed

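RNA of H1975 cells was sequenced from 1 library per siRNA. Bowtie2, TopHat2, HISAT and HISAT2 stand in the submitters' processing notes with the build hg19. The sources used here do not give the program that counted reads, its annotation or its use of strand. The authors deposited read counts per gene, not normalised, beside CPM, FPKM and TPM, per the file headers. Deposited CPM are the counts scaled to a common library total; deposited FPKM and TPM are also scaled by gene length. Of the identifiers, 153 are not Ensembl genes.

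Here counts were scaled with TMM factors (edgeR 4.0.16, R 4.3.3), giving 1.01 for siHHLA3-1, 1.01 for siHHLA3-3 and 0.978 for siNC. Ratios are log2 of (CPM + 1) over (CPM + 1), which understates differences of low genes; folds omit the added 1. The filter was a mean of at least 1 CPM, and the threshold was 20% lower or 25% higher. Alternatives were DESeq2 1.42.0 size factors, library totals, deposited TPM and FPKM, a pseudocount of 0.1, no filter, means of at least 5 and 100 CPM, 1.5-fold and 2-fold thresholds, a counting interval, and pseudogene reads added. The mean of 100 CPM and the counts of direction under each scaling were chosen after seeing the data. The methods were also tested on simulated data.

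Level intervals are exact Poisson and ratio and share intervals exact binomial (scipy 1.17.1; Python 3.11.15, pandas 2.3.3, numpy 2.4.6). Coding length and GC content came from GENCODE 29 by Ensembl identifier, found for 83 of 83 members; no coordinates were taken from it. Start windows came from RefSeq. The members and lists were chosen with earlier results of these data known. Named were HHLA3, the paralogues and their core partners, RPLP0, RPLP1, RPLP2, RPSA, FAU, the 5 highest and 5 lowest members of each comparison, the 5 highest and lowest core genes by FPKM with siNC, and up to 4 genes of each other list by mean ratio to siNC. Others named (RPS28, RPS7, RPL23A, RPL23, RPS3, RPS26, RPL3, RPL4 and markers that were not listed) were added after their values were seen. A few genes that fall under these choices are left out of the text and of the labelled plots.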

Additional observations from a re-analysis of the deposited data

How the results depend on the processing

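No paired analysis was possible because each group has 1 library, which leaves no pairs to block. Median ratios kept their direction under every scaling tried. With library totals alone the median of the members was -0.16 for siHHLA3-1 over siNC and -0.034 for siHHLA3-3 over siNC; with the deposited TPM it was -0.15 and -0.017, and with the deposited FPKM -0.15 and -0.032. Those scalings moved the median of all genes to between 0.03 and 0.05, and the difference between members and all genes stayed between -0.20 and -0.17 for siHHLA3-1 and between -0.07 and -0.06 for siHHLA3-3. Members below 0 with siHHLA3-1 were 73 to 78 over the scalings, against 44.4% to 51.8% of all genes. With siHHLA3-3 they were 43 to 68, against 42.5% to 51.5% of all genes. RPL5, RPS3A, RPL14, RPLP1, RPLP2, RPL41 and RPS4X are among the genes whose siHHLA3-3 ratio to siNC changed sign with library totals, and RPS27, RPL17, RPL39, RPL36A and RPL23A among those of siHHLA3-1. With the deposited TPM, 4 members were at least 20% lower with siHHLA3-1. At 1.5-fold the counts were 0 lower for siHHLA3-1 over siNC, and 1 higher and 0 lower for siHHLA3-3 over siHHLA3-1. At 2-fold all of these were 0. Among genes of at least 100 CPM, 0 members were lower for siHHLA3-3 over siHHLA3-1, since RPS27L is not among them. The share of reads was 3.89%, 4.24% and 4.32% of recovered library totals with siHHLA3-1, siHHLA3-3 and siNC, and 3.9997%, 4.36% and 4.45% with pseudogene reads added. Of 753 alternative values of single members, 604 moved by less than the counting interval, 149 by more and 0 changed the direction of a called value. The 604 include the values with no filter and with a mean of at least 5 CPM. These settings cannot change the ratio of a single member, so those values say nothing about its stability. Low read numbers limit RPS10, RPL36A and RPL17, which have 57 to 289 reads per library. Their low levels may depend on how reads were counted, which was not given and was not tested.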
